A study of Mus musculus with 2 samples.

Results

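The non-classical monocytes described here were 466 of 19580 cells that passed the quality filters, among 19832 deposited barcodes of live CD45-positive cells from mouse liver tumours. A cell was counted as one when it held a UMI (a unique molecular identifier, which marks 1 captured transcript) of at least 2 of the 4 genes Ace, Spn, Treml4 and Eno3. It also had to hold at least 1 Lyz2 UMI, at most 1 Ly6c2 UMI, fewer than 15 UMIs of C1qa, C1qb and C1qc together, fewer than 5 Arg1 UMIs, and no UMI of Cd209a, Cd3d, Cd3e or Cd3g. The cells were thus chosen by their measured UMIs of these 14 genes, whose levels describe the gate and are not results. The tumours were grown by placing Hepa1-6, a mouse hepatoma cell line, in the liver of C57/BL6 mice of WT genotype. One group received anti-PD-1, an antibody that blocks the PD-1 receptor of lymphocytes, and gave 262 gated cells of 10014. The other received isotype, a control IgG without that target, and gave 204 gated cells of 9566. Each group was 1 library, and the labels name no number, age or sex of mice, no antibody dose and no day of treatment. No test between anti-PD-1 and isotype was therefore possible. The 95% intervals below cover counting error only, and an effect of the antibody cannot be told apart from a difference between the libraries.

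Monocytes of the mouse fall into classical cells, which carry much Ly6C, leave the blood at sites of inflammation and can become macrophages, and non-classical cells, which carry little. Non-classical monocytes crawl along the inner wall of blood vessels, clear debris and damaged endothelium, and are known to take up tumour material in the vessels of the mouse lung. They arise from classical monocytes under the transcription factors Nr4a1 and Cebpb and live on signals through Csf1r, and they are recognised by Cx3cr1, by the sialomucin CD43 that Spn encodes and by the Fc receptor gene Fcgr4.

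The anti-PD-1 library held 72148493 UMIs and the isotype library 67520433. The gated cells had a median of 7336 UMIs with anti-PD-1 and 7627 with isotype, and 2165 and 2188 detected genes in that order. Of the barcodes, 140 occurred in both libraries, but no barcode was gated in both.

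The gated cells made up 2.62% of the anti-PD-1 cells (262 of 10014, exact Clopper-Pearson interval 2.31% to 2.95%) and 2.13% of the isotype cells (204 of 9566, 1.85% to 2.44%). The difference was 0.484 percentage points (Newcombe interval 0.0564 to 0.912). A gate on UMIs depends on depth. It gave a smaller difference when cells with fewer than 3000 UMIs were left out and the others thinned to 3000 UMIs. After both steps 174 of 7214 anti-PD-1 cells (2.41%) and 152 of 6575 isotype cells (2.31%) met it, a difference of 0.1002 points (-0.412 to 0.608). The part of each step was not tested. Of Lyz2-positive cells with no Cd3 UMI, the share was 3.96% with anti-PD-1 and 3.33% with isotype, a difference of 0.626 points (-0.0275 to 1.28). With at least 3 of the 4 markers required, 92 anti-PD-1 cells and 67 isotype cells were left, and the difference was 0.218 points (-0.0345 to 0.473). In these last 3 counts a larger share with anti-PD-1 was not detectable at this depth.

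Most gated cells sat close to the lower edge of the marker rule. In the anti-PD-1 library 170 cells held 2 of the 4 markers, 66 held 3 and 26 held 4. In the isotype library 137 cells held 2, 46 held 3 and 21 held 4. Cells that met every other criterion with 1 marker numbered 374 with anti-PD-1 and 344 with isotype. Ace, the angiotensin-converting enzyme, was the marker most often seen, in 88.5% of gated anti-PD-1 cells and 91.7% of gated isotype cells, and Treml4, a receptor of the TREM family, came second with 71.8% and 73.0%. The Ly6c2 limit removed the most cells: of the cells with at least 2 markers, 306 of 749 with anti-PD-1 and 225 of 552 with isotype failed by that limit alone. Just inside it were 56 and 47 cells with exactly 1 Ly6c2 UMI, and just outside it 41 and 33 cells with exactly 2, in the same order of libraries.

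Genes that are known for non-classical monocytes but were not used by the gate were high in the gated cells. They were compared with classical monocytes of the same libraries (Lyz2 at least 1, Ly6c2 at least 3, none of the 4 markers, and the other limits as above), of which there were 1020 with anti-PD-1 and 748 with isotype. Levels are given in CPM, the UMIs of a gene summed over the cells of a class and scaled to the same total for every class, and a gene counted as higher or lower in the gated cells when it differed at least 2-fold in both libraries. Of 19 such genes 18 had the 50 UMIs needed, and 11 of these were higher in the gated cells, while 1.96% of all 9187 genes tested were higher and 2.75% lower. Adgre4, an adhesion G protein-coupled receptor, had 110 CPM with anti-PD-1 and 109 CPM with isotype in the gated cells, against 8.02 and 8.23 CPM in classical monocytes. Cd300e, an activating immune receptor, had 18.6 and 12.0 CPM in the gated cells, against 0.428 and 0.137 CPM in classical monocytes. The fractalkine receptor gene Cx3cr1 was low in all classes, with 37.1 and 36.0 CPM in the gated cells and 12.8 and 11.5 CPM in classical monocytes. Gngt2, a G protein gamma subunit, was the most abundant of the list, with 881 and 981 CPM in the gated cells and 254 and 240.5 CPM in classical monocytes. Itgal, the alpha chain of the integrin LFA-1 used for crawling, missed the 2-fold mark in both libraries, with 179 and 193 CPM in the gated cells and 92.8 and 96.8 CPM in classical monocytes.

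**Figure D1:**
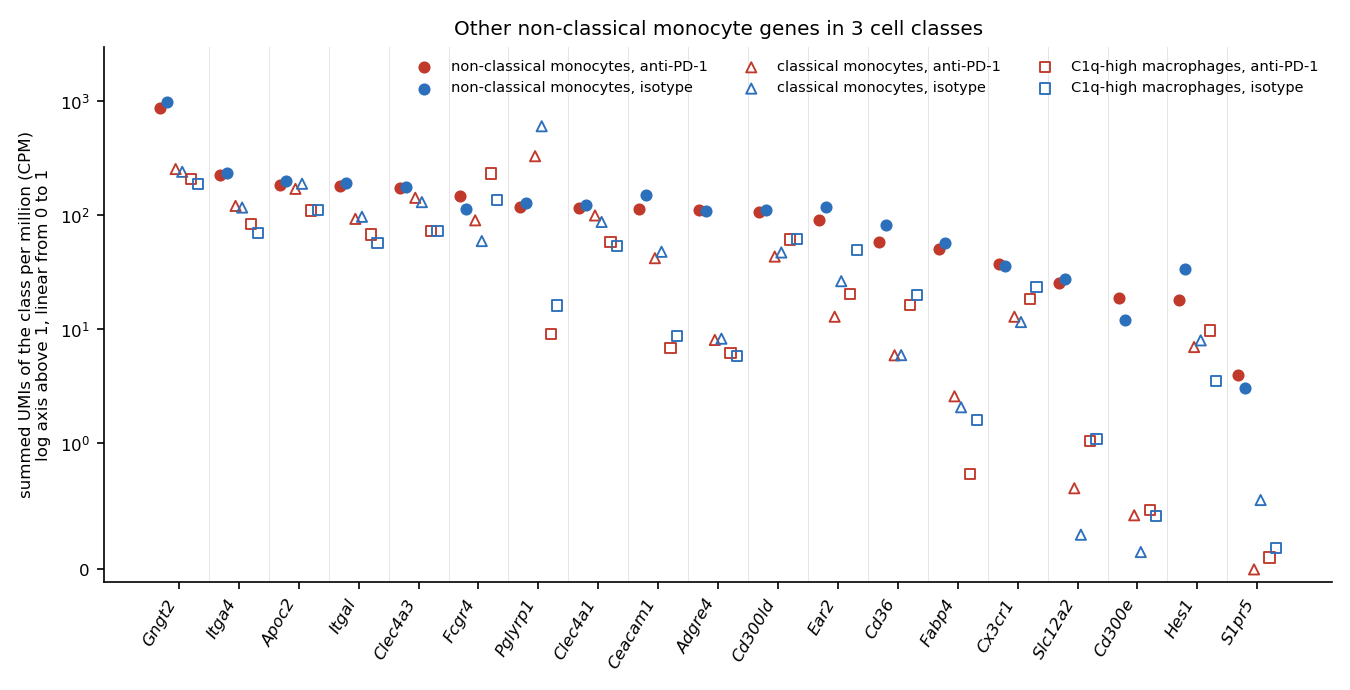
Levels of 19 genes known for non-classical monocytes and not used by the gate, in CPM on a vertical axis that is logarithmic above 1 and linear from 0 to 1. Filled circles are the gated non-classical monocytes, open triangles classical monocytes and open squares C1q-high macrophages, with anti-PD-1 in red and isotype in blue, 1 library each. Adgre4, Fabp4, Slc12a2 and Cd300e stand far above the other 2 classes, while Pglyrp1 is higher in classical monocytes.

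Pglyrp1, a peptidoglycan-binding protein that neutrophil granules also hold, was the 1 list gene lower in the gated cells, with 118 and 127 CPM against 330 and 604 CPM in classical monocytes. The classical gate held cells with neutrophil genes: 205 of its 1020 anti-PD-1 cells and 218 of its 748 isotype cells had at least 3 detected genes of the list of 10 neutrophil, 12 dendritic or 10 B cell markers. Without such cells on either side, a narrowing chosen after the values were seen, Pglyrp1 was higher in the gated cells, with 100.4 and 103 CPM against 22.4 and 23.6 CPM. After this narrowing 12 of the 18 genes were at least 2-fold higher in both libraries and 0 lower, where 1.55% and 2.46% of 8569 genes were. The median log2 ratio over classical monocytes was 1.67 with anti-PD-1 and 1.66 with isotype for the list, and -0.04 and -0.06 for all genes.

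Of the scavenging and lipid list 1 of 10 genes was at least 2-fold higher in both narrowed libraries and 0 lower, with median log2 ratios of -0.05 and -0.11. Of the adhesion list 3 of 13 were higher and 1 lower. Of all 8569 genes 1.55% were higher and 2.46% lower. The 20 genes furthest above narrowed classical monocytes included genes known from dendritic cells. Ccr7 had 119.9 and 55.2 CPM in the gated cells, against 5.09 and 9.74 CPM in classical monocytes. Mgl2, a lectin, had 56.6 and 33.8 CPM, against 0.5499 and 6.01 CPM, and the chemokine gene Ccl17 had 38.3 and 41.9 CPM, against 1.79 and 10.8 CPM. The levels that follow, up to those of the classical monocyte genes, are those of the narrowed gate. The part of dendritic cells in them was not tested. Fabp4, a fatty acid binding protein, had 48.7 and 58.8 CPM in the gated cells, against 3.02 and 2.90 CPM in classical monocytes. The scavenger receptor gene Cd36 had 53.5 and 81.6 CPM, against 6.32 and 7.46 CPM. Pltp, the phospholipid transfer protein, had 214 and 202 CPM, against 16.1 and 22.8 CPM. Nr1h3, which encodes the sterol receptor LXR-alpha, had 24.9 and 25.7 CPM in the gated cells, against 3.44 and 4.15 CPM. Itgax, the integrin chain CD11c, had 144 and 134 CPM, against 24.1 and 28.2 CPM. Slc12a2, a chloride cotransporter of the cell membrane, had 29.2 and 30.9 CPM, against 0.825 and 0.207 CPM in classical monocytes.

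Of the 8 genes of MHC class II presentation, 5 were at least 2-fold higher than in classical monocytes in both narrowed libraries. Cd74, the invariant chain, had 15094 and 11708 CPM in the gated cells, against 3706 and 3200.1 CPM in classical monocytes. H2-Aa, a class II alpha chain, had 4573 and 3379.7 CPM, against 1067 and 839.8 CPM. Of the 11 survival genes 3 passed the same mark and 8 did not, with a median log2 ratio of 0.18 with anti-PD-1 and 0.28 with isotype, beside the 1.55% of all genes. All 3 belong to the Bcl2a1 family, whose products protect myeloid cells from apoptosis. Bcl2a1a, for instance, had 145 and 153 CPM in the gated cells, against 37.5 and 41.5 CPM. Its family members are near-identical copies, so reads could be split between them and the single values are uncertain.

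Most of the genes known for classical monocytes were low. Of 11 tested, 7 were at least 2-fold lower in both narrowed libraries, where 2.46% of 8569 genes were. Plac8, which encodes a cysteine-rich protein, was higher in the gated cells, with 4949 and 4921 CPM against 3671 and 3328 CPM in classical monocytes. F13a1, the coagulation factor XIII A chain, had 9.73 and 36.8 CPM in the gated cells, against 433 and 428 CPM in classical monocytes. Ccl2, the chemokine that calls monocytes, had 80.3 and 90.4 CPM, against 880.2 and 747 CPM. Ccr2, its receptor, had 209 and 207 CPM in the gated cells, against 411 and 415 CPM, a ratio close to the 2-fold mark.

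Among the 10 regulators listed, none differed at least 2-fold from classical monocytes in both libraries, before or after the narrowing. The regulator levels given here are those of the gates before narrowing. Nr4a1, the nuclear receptor that non-classical monocytes need, had 936 CPM with anti-PD-1 and 833 CPM with isotype in the gated cells, against 520 and 445 CPM in classical monocytes. Pou2f2, a POU factor, had 110 and 105 CPM, against 47.9 and 52.5 CPM. Cebpb had 3992 and 3995 CPM in the gated cells, against 3891 and 3616 CPM. The median log2 ratio of the 10 was 0.37 with anti-PD-1 and 0.32 with isotype, and 0.26 and 0.16 after the narrowing.

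A second comparison, of all gated cells without narrowing, was made with C1q-high macrophages (at least 15 C1q UMIs, fewer than 2 markers). These macrophages numbered 1163 with anti-PD-1 and 1132 with isotype. Here 12 of the 18 genes of the non-classical list were at least 2-fold higher in the gated cells in both libraries, where 3.25% of 9744 genes were. Of 12 macrophage markers 5 were at least 2-fold lower and 1 higher, where 4.23% of all genes were lower. Mrc1, the mannose receptor, had 2.93 and 3.60 CPM in the gated cells, against 72.4 and 114 CPM in macrophages. Apoe, the lipoprotein of lipid export, had 547 and 575 CPM, against 1499.5 and 1523 CPM. Fcgr4 did not separate the gated cells from macrophages: it had 146 and 114 CPM, against 232 and 136 CPM. Of 16 chemokine genes 12 were at least 2-fold lower in the gated cells and none was higher.

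A minority of the gated cells carried genes of other lineages. In the anti-PD-1 library 20 gated cells and in the isotype library 22 had at least 3 of the 10 neutrophil markers, and they held 2600 of 2629 and 1461 of 1573 UMIs of S100a9, a neutrophil calcium-binding protein. At least 3 of the 12 dendritic markers were detected in 16 gated anti-PD-1 cells and 8 gated isotype cells. Those cells held 461 of 665 and 82 of 165 UMIs of Ccr7, the chemokine receptor of migrating dendritic cells, and 63 of 63 and 6 of 6 UMIs of Itgae, the integrin CD103. S100a9, Ccr7 and Itgae are themselves among the markers that picked these cells, so these shares describe the picking and are not results. The median depth of the cells with 3 dendritic markers was 15191 and 14739 UMIs, against 7256 and 7439 UMIs in the cells kept below. At least 3 B cell markers were seen in 0 and 1 gated cells. Removing all of these left the narrowed gate, with 227 and 175 cells, and some values with it are given below. The summed level of the dendritic list was 618 CPM with anti-PD-1 and 335 CPM with isotype, and that of the neutrophil list was 2381 and 1787 CPM. Of the 10 T and NK cell markers 6 were at 0 UMIs in each library, among them Trac, Trbc2, Nkg7, Gzma and Ncr1. The gate allows no Cd3 UMI, so the absence of T cell genes is in part set by the rule. Of the 10 tumour and liver markers 7 were at 0 in each library, among them Alb, Afp and Ttr. Trf held 455 of 457 and 496 of 498 UMIs of the tumour and liver list.

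The gated cells differed among themselves by how many of the 4 markers they held. The summed level of the 19 other non-classical genes was 2165 CPM in cells with 2 markers, 3167 CPM with 3 and 4890.0 CPM with 4 in the anti-PD-1 library. In the isotype library it was 2416, 3665 and 4465 CPM. Cells outside the gate with 1 marker had 1335 CPM with anti-PD-1 and 1285 CPM with isotype. Ear2, an eosinophil-associated ribonuclease family member, followed the same order within each library, with 50.2, 138 and 256 CPM with anti-PD-1 and 92.6, 169.5 and 180.4 CPM with isotype. Ear2 has near-identical family members, so its counts are uncertain. Nr4a1 did too, with 726, 1191 and 1789 CPM with anti-PD-1 and 752, 842 and 1342 CPM with isotype. Ccr2 had 61.1 and 78.9 CPM in cells with 4 markers, against 197 and 248 CPM in cells with 2.

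MHC class II was lowest in the cells with all 4 markers. Its 8 genes summed to 32336 CPM in anti-PD-1 cells with 2 markers, 29488 CPM with 3 and 17487 CPM with 4. In isotype cells they summed to 24211, 15792 and 4459.6 CPM. In the narrowed gate the sums were 27706, 30069 and 17904 CPM with anti-PD-1 (142, 60 and 25 cells) and 24771, 16441 and 3117 CPM with isotype (119, 40 and 16 cells). The ratio between the antibodies was thus widest in the few cells with all 4 markers and narrowest in those with 2. The interferon-gamma list summed to 2120, 1816 and 1962 CPM with anti-PD-1 and to 1292, 994 and 1849 CPM with isotype, so the libraries were closest in the 26 and 21 cells with all 4 markers.

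**Figure D2:**
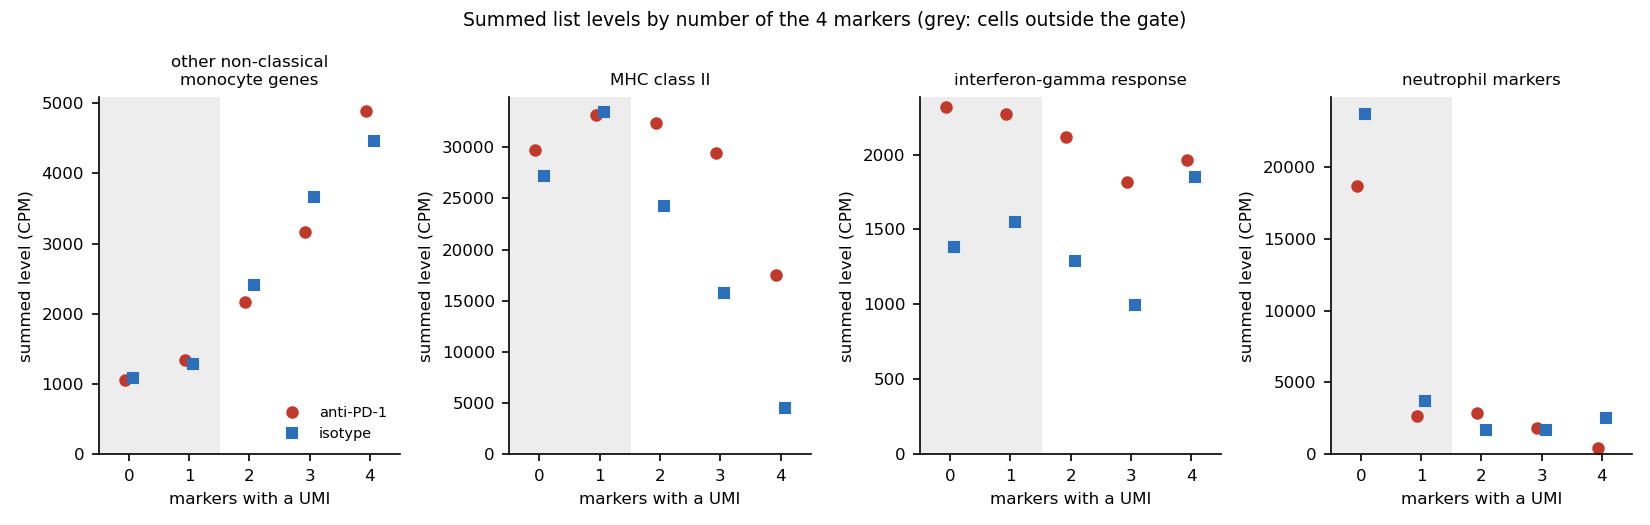
Summed levels in CPM of 4 gene lists, by the number of the 4 gate markers with a UMI, for anti-PD-1 (red circles) and isotype (blue squares), 1 library each, with cells outside the gate on grey. Other non-classical genes climb to 4890.0 and 4465 CPM in cells with 4 markers, while MHC class II is lowest there within the gate, at 17487 and 4459.6 CPM.

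With anti-PD-1 the gated cells held more UMIs of genes of the interferon-gamma response than with isotype. Across all genes with at least 50 UMIs in the gated cells, 359 of 5898 (6.09%) were at least 1.5-fold higher with anti-PD-1 and 142 (2.41%) at least 1.5-fold lower. Among the 9119 genes with at least 10 UMIs, the minimum for the lists below, 13.1% were at least 1.5-fold higher and 6.54% at least 1.5-fold lower. Of these 9119 genes 58.7% were higher at all, and their median log2 ratio of anti-PD-1 over isotype was 0.07. Other scalings of the library totals would move every log2 ratio by -0.06. The interferon-gamma list holds 26 genes, of which 23 had 10 UMIs: 22 were higher with anti-PD-1, 17 of them at least 1.5-fold, and 1 was lower, with a median log2 ratio of 0.82. With the narrowed gate 21 of 22 were higher, with a median of 0.88. The share of cells in which no UMI of the list was found after thinning to 1000 UMIs was 36.0% with anti-PD-1 (94 of 261 cells, 30.2% to 42.2%) and 45.8% with isotype (93 of 203, 38.8% to 52.9%), and the intervals overlap.

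Guanylate-binding proteins, GTPases that attack vacuoles of pathogens, were among those higher. Gbp2 had 280 CPM with anti-PD-1 and 155 CPM with isotype, a log2 ratio of 0.85 (95% interval 0.64 to 1.07). Gbp4 had 50.8 and 21.0 CPM, a log2 ratio of 1.27 (0.71 to 1.87). Gbp5, which also assembles inflammasomes, had 75.7 and 37.3 CPM, a log2 ratio of 1.02 (0.59 to 1.47). Gbp3 and Gbp7 had log2 ratios of 0.60 and 0.72. Reads of these related genes can be shared, so single members are less certain than the family. Irf1, a transcription factor that interferon-gamma induces, differed less, with 244 and 208 CPM and a log2 ratio of 0.23 (0.03 to 0.43). The T cell-attracting chemokine gene Cxcl9 had 111 CPM with anti-PD-1 and 24.03 CPM with isotype, from 24 and 9 cells, a log2 ratio of 2.21 (1.72 to 2.73), which was -0.19 when at least 3 markers were required. Cxcl10, a second ligand of the same receptor, had 241 and 111 CPM, from 48 and 32 cells, a log2 ratio of 1.12 (0.87 to 1.37). The immunity-related GTPase gene Iigp1 had 20 UMIs with anti-PD-1 and 2 with isotype, but 16 and 2 of these lay in the cells with 3 dendritic genes. Tgtp1, a T cell-specific GTPase, had 23 UMIs in 10 anti-PD-1 cells and none in isotype cells. Cd274, which encodes PD-L1, the ligand of the blocked receptor, had 324 and 299 CPM, a log2 ratio of 0.11 (-0.06 to 0.28).

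The promoters of interferon-induced genes carry short elements that interferon-activated factors bind, and 4 windows are shown so that the letters can be read beside these ratios. Each window runs from 250 bases before to 50 after the annotated start (RefSeq, GRCm38.p6), and capitals mark matches on either strand to the core of the interferon-stimulated response element (GAAA, any 2 bases, GAAA) or to the gamma-activated site, TTCNNNGAA. Gbp2 (chr3:142620413-142620712, plus strand) and Gbp5 (chr3:142496684-142496983, plus strand) stand for the guanylate-binding proteins, Cxcl10 (chr5:92348840-92349139, minus strand) for the chemokines, and Adgre4 (chr17:55749734-55750033, plus strand) for the other non-classical genes, with a log2 ratio between the antibodies near 0.
Gbp2: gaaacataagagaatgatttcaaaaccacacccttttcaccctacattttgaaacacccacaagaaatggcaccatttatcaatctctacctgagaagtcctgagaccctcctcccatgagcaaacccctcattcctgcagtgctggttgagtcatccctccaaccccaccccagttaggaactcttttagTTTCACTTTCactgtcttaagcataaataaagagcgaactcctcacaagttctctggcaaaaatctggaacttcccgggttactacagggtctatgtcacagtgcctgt
Gbp5: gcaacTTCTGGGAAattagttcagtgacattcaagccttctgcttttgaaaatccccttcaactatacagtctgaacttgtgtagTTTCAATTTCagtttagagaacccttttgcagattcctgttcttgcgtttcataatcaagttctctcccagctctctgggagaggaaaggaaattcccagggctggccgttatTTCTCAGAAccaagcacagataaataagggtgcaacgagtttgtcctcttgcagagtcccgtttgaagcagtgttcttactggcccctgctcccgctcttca
Cxcl10: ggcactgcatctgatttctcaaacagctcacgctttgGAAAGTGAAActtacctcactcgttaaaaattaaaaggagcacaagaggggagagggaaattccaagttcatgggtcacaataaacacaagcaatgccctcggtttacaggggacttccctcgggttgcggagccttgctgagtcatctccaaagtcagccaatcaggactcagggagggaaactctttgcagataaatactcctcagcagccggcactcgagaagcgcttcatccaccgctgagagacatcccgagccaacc
Adgre4: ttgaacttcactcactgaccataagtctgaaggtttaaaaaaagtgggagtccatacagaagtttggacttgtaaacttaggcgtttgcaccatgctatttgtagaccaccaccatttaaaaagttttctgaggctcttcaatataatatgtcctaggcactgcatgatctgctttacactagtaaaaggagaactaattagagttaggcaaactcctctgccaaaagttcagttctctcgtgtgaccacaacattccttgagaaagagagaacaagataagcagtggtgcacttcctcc
The response element core was present in 12 of the 16 interferon-gamma list genes that have a window, against 943 of all 27025 windows (3.49%). The gamma-activated site was present in 7 of the 16 (43.8%), against 2288 of 27025 (8.47%). Of the 14 other non-classical genes with a window, 1 held the response element core and 1 the gamma-activated site. The core was also in 9 of 19 windows of the type I interferon list (47.4%) and the gamma-activated site in 4 of 19. Of 5 MHC class II genes with a window, 0 held the core and 1 the gamma-activated site. The window of Cxcl9 held 0 matches to either. Whether the elements go with the ratios was not tested. AAAGGTCA, the element that Nr4a1 binds, was in 0 of those 14 windows and in 394 of 27025 (1.46%). A match is only a run of letters, and the list was put together from genes known to respond to interferon.

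Type I interferon genes differed less. Of 21 with 10 UMIs, 14 were higher with anti-PD-1, 4 of them at least 1.5-fold, and 7 lower, 3 of them by that much, with a median log2 ratio of 0.18. Of those measured in the narrowed gate 17 of 20 were higher, with a median of 0.42. Oasl1, which holds back translation of Irf7, had 57.6 CPM with anti-PD-1 and 25.8 CPM with isotype, a log2 ratio of 1.16 (0.64 to 1.70). Irf7, the factor that amplifies the type I response, had 86.5 and 61.3 CPM, a log2 ratio of 0.50 (0.14 to 0.86). Isg15, a ubiquitin-like protein, had 274 and 234 CPM, a log2 ratio of 0.23 (0.04 to 0.42). In the narrowed gate Irf7 had a log2 ratio of 0.74 and Isg15 one of 0.55. Of 13 genes of nucleic acid sensing 10 were higher, with a median of 0.22, and Zbp1, a sensor of Z-form nucleic acid, had 148 and 96.7 CPM, a log2 ratio of 0.61 (0.33 to 0.90).

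Scaled to the library totals, 15 of 15 genes of MHC class I presentation were higher with anti-PD-1, none at least 1.5-fold, with a median log2 ratio of 0.32. With TMM or median-of-ratios scaling 13 were higher and 2 lower. The immunoproteasome subunit gene Psmb9 had 283 CPM with anti-PD-1 and 196 CPM with isotype, a log2 ratio of 0.53 (0.33 to 0.73). The peptide transporter gene Tap2 had 126 and 88.3 CPM, a log2 ratio of 0.51 (0.21 to 0.81). H2-K1, a classical heavy chain, had 1619 and 1367 CPM, a log2 ratio of 0.24 (0.17 to 0.32). With at least 3 markers required 7 were higher and 8 lower, with a median of -0.01.

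All 8 genes of the MHC class II pathway were higher too, 4 of them at least 1.5-fold, with a median log2 ratio of 0.58. Ciita, the master activator of class II genes, had 49.3 CPM with anti-PD-1 and 22.2 CPM with isotype, from 57 and 23 cells, a log2 ratio of 1.15 (0.59 to 1.73), which was -0.07 after thinning to 1000 UMIs. Cd74 had 16349 and 11244 CPM, a log2 ratio of 0.54 (0.51 to 0.57). H2-Aa had 5016 and 3293 CPM, a log2 ratio of 0.61 (0.56 to 0.65), and in anti-PD-1 2522 of its 10269 UMIs lay in the 16 cells with 3 dendritic genes. In the narrowed gate 8 of 8 were higher, with a median of 0.40, and without cells with 2 dendritic genes 7 of 8, with a median of 0.34. Before narrowing, the summed list had a log2 ratio of 0.57 in the gated cells. In classical monocytes before narrowing it had one of 0.54, at 7413 CPM with anti-PD-1 and 5082 CPM with isotype. In C1q-high macrophages it had one of 0.00, at 31583 and 31544 CPM. After narrowing, Cd74 had a log2 ratio of 0.21 in classical monocytes and 0.37 in the gated cells. For H2-Aa these values were 0.35 and 0.44, for H2-Ab1 0.33 and 0.31, and for H2-DMb2 -1.04 and 1.89. Whether the class II difference of the gated cells is one of level per cell or of which cells met the gate was not tested.

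**Figure D3:**
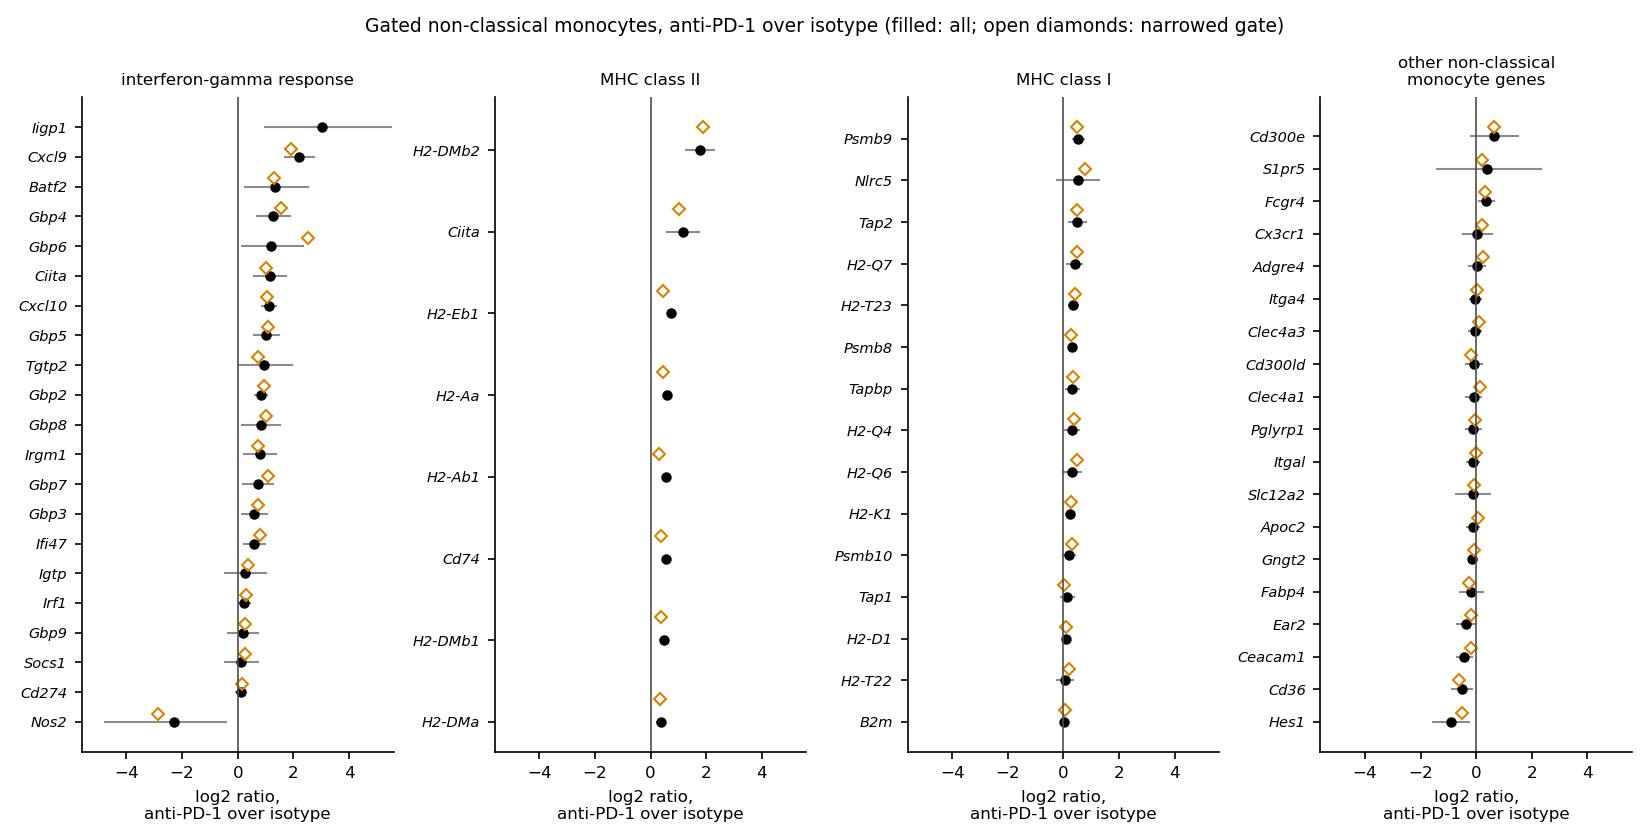
Log2 ratio of anti-PD-1 over isotype for genes of 4 lists in the gated cells, filled circles with exact 95% intervals of counting error, for genes with at least 10 UMIs and at least 1 UMI in each library. Open diamonds give the narrowed gate, and the interval of Iigp1 runs past the edge of the axis. Of the interferon-gamma genes drawn, which are not the whole list, all but Nos2 lie right of 0, whereas the other non-classical genes lie on both sides of it, from Hes1 at -0.90 to Cd300e at 0.63.

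Per cell, 1000 UMIs of a gated cell held on average 2.16 UMIs of the interferon-gamma list with anti-PD-1 and 1.22 with isotype. Classical monocytes had 2.53 and 1.25, and macrophages 3.21 and 1.73. The log2 ratio of the summed list was 0.65 (0.58 to 0.73) in gated cells, 1.04 (1.01 to 1.08) in classical monocytes and 0.90 (0.87 to 0.92) in macrophages. All 3 classes were higher with anti-PD-1, and the gated cells had the smallest ratio of the 3, with intervals that do not overlap and cover counting error only. At least 5 UMIs of the list were held by 37 of 261 thinned gated cells with anti-PD-1 (14.2%) and by 10 of 203 with isotype (4.93%).

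**Figure D4:**
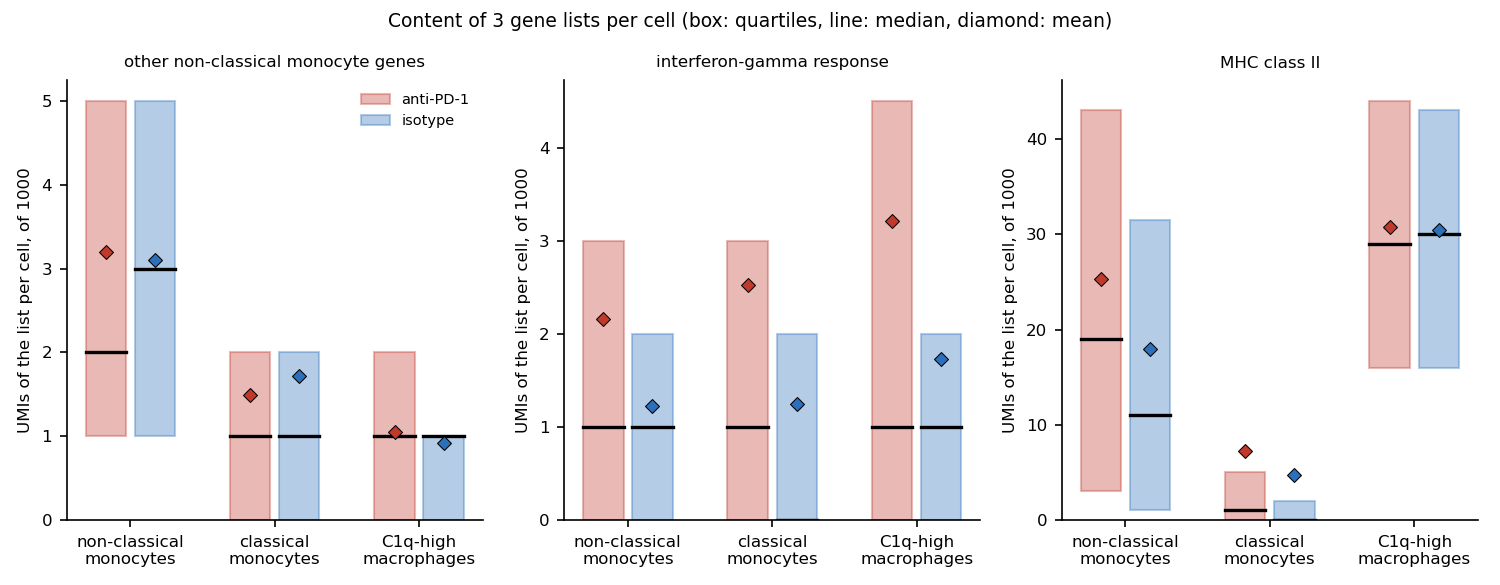
UMIs of 3 gene lists per cell after each cell was thinned to 1000 UMIs, in the 3 cell classes with anti-PD-1 (red, left) and isotype (blue, right), with boxes from the first to the third quartile, a black line at the median and a diamond at the mean. Gated cells hold the most UMIs of the other non-classical genes, with means of 3.20 and 3.10, and an amount of MHC class II between that of classical monocytes and that of macrophages.

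The identity genes did not separate the antibodies in this way. Of the 19 other non-classical genes 5 were higher and 14 lower with anti-PD-1, 1 each by at least 1.5-fold, with a median log2 ratio of -0.10. In the narrowed gate 10 were higher and 9 lower, with a median of 0.01. Adgre4 had a log2 ratio of 0.02 (-0.27 to 0.31) and Cx3cr1 one of 0.04 (-0.47 to 0.56). Fcgr4, a receptor for IgG that interferon also induces, had 146 and 114 CPM, a log2 ratio of 0.36 (0.09 to 0.63). Lower with anti-PD-1 were Cd36, with a log2 ratio of -0.50 (-0.87 to -0.14), and Ear2, with one of -0.38 (-0.68 to -0.08). Hes1, a target of Notch signalling, had 18.1 CPM with anti-PD-1 and 33.6 CPM with isotype, a log2 ratio of -0.90 (-1.54 to -0.27), which was 0.86 after thinning.

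Of the 10 regulators 7 were higher and 3 lower, with a median of 0.08. Klf2, a factor of quiescence and trafficking, had 485 CPM with anti-PD-1 and 370.1 CPM with isotype, a log2 ratio of 0.39 (0.24 to 0.54), and 0.75 in the narrowed gate. Nr4a1 had a log2 ratio of 0.17 (0.07 to 0.27). Irf8, which non-classical monocytes share with dendritic cells, had 283 and 177 CPM, a log2 ratio of 0.68 (0.47 to 0.88), but 271 of its 580 anti-PD-1 UMIs lay in the 16 cells with 3 dendritic genes, and its log2 ratio was 0.20 in the narrowed gate.

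Genes of classical monocytes were lower in 9 of 11 cases and higher in 2, with a median of -0.24. Chil3, a chitinase-like secreted protein, had 230 CPM with anti-PD-1 and 466 CPM with isotype, a log2 ratio of -1.02 (-1.19 to -0.85). F13a1 had 16 and 52 UMIs, in 11 and 16 cells, a log2 ratio of -1.999 (-2.91 to -1.17). Both stayed lower in the narrowed gate, with log2 ratios of -0.91 and -1.92, while the list there had 5 genes higher and 6 lower, with a median of -0.13. Ccr2 had a log2 ratio of -0.12 (-0.33 to 0.10).

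Chemokines went both ways: 9 of 16 were higher with anti-PD-1, 6 of them at least 1.5-fold, and 7 lower, with a median of 0.05. Of the 6, Ccl7 and Ccl12 had fewer than 50 UMIs, with 12 of the 21 anti-PD-1 UMIs of Ccl12 in 1 cell, and 21 of the 44 anti-PD-1 UMIs of Ccl22 lay in the cells with 3 dendritic genes. Beside Cxcl9 and Cxcl10, Cxcl16, the ligand that holds CXCR6-positive T cells, had 135 CPM with anti-PD-1 and 87.1 CPM with isotype, a log2 ratio of 0.64 (0.34 to 0.94). Ccl7, which attracts monocytes, had 34 and 3 UMIs, of which 20 came from 1 anti-PD-1 cell. Lower were Ccl2, with 77.7 and 112 CPM and a log2 ratio of -0.53 (-0.85 to -0.22), and Ccl6, with 1198 and 1507 CPM and one of -0.33 (-0.41 to -0.25). With the narrowed gate the median of the list was 0.41, and the log2 ratio of Ccl2 was -0.17. That of Ccl2 was above 0 with 3 markers required (1.19) and with Ly6c2 at 0 (0.14).

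The inflammatory genes were split, with 8 of 16 higher and 8 lower and a median of -0.04. Il1b, the most abundant of them, had 4865 CPM with anti-PD-1 and 4422 CPM with isotype, a log2 ratio of 0.14 (0.09 to 0.18). Tnf had 147 and 121 CPM, a log2 ratio of 0.28 (0.02 to 0.54). Ptgs2, the inducible prostaglandin synthase, had 302 and 391 CPM, a log2 ratio of -0.37 (-0.53 to -0.21), which was 0.36 after thinning. Cxcl2, a neutrophil attractant, had 2408 and 2851 CPM, a log2 ratio of -0.24 (-0.30 to -0.19).

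Genes of adhesion and of the Fc receptors differed little. Of 13 adhesion genes 5 were higher and 8 lower, with a median of -0.08, and Icam1, the ligand of LFA-1, had the highest log2 ratio, 0.41 (0.14 to 0.69), at 142 and 106 CPM. Of 5 Fc receptor genes 3 were higher and 2 lower, with a median of 0.04. Glycolysis and hypoxia genes had a median of 0.03, with 10 of 18 higher, and scavenging and lipid genes one of 0.05, with 5 of 10 higher. Of 14 checkpoint and costimulatory ligands 8 were higher and 6 lower, with a median of 0.09. Cd86, a costimulatory ligand of CD28, had 150 and 115 CPM, a log2 ratio of 0.39 (0.13 to 0.66), which was 0.19 (-0.10 to 0.48) in the narrowed gate. Pdcd1lg2, which encodes PD-L2, had 48 and 19 UMIs, a log2 ratio of 1.04 (0.24 to 1.89), and 1.58 in the narrowed gate. Of 11 survival genes 7 were higher, with a median of 0.16. Csf1r, the receptor on which these monocytes depend, had 463 and 406 CPM, a log2 ratio of 0.19 (0.04 to 0.33), and Bcl2l1, an anti-apoptotic gene, had 35 and 12 UMIs, one of 1.25 (0.27 to 2.33). Of 13 genes of repair and suppression 8 were higher, with a median of 0.15.

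Of 16 immediate-early and heat-shock genes, which are also known to respond to tissue digestion, 13 were higher with anti-PD-1 and 3 lower, with a median of 0.15. In the narrowed gate 10 were higher and 6 lower, with a median of 0.09, where 58.7% of all genes were higher. Fos had 724 CPM with anti-PD-1 and 357 CPM with isotype, in 193 and 131 cells, a log2 ratio of 1.02 (0.88 to 1.16). Egr1 had 57.6 and 33.0 CPM, one of 0.80 (0.33 to 1.29). Jun, which pairs with Fos, had 749 and 745 CPM, one of 0.01 (-0.10 to 0.12). The part of tissue handling in these ratios was not tested.

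The genes with the most extreme ratios, ranked by the bound of the interval nearest to 0, often rested on few cells. The 10 highest with anti-PD-1 were Serpinb9, Serpinb6b, Cxcl9, H2-DMb2, Asprv1, Ccl22, Ly6a, Inhba, Olfm1 and Ramp3. Serpinb9, a granzyme B inhibitor, had 74 UMIs with anti-PD-1 and 5 with isotype, of which 56 and 4 lay in the cells with 3 dendritic genes. For Serpinb6b, another serpin, those cells held 79 of 87 and 11 of 11 UMIs. Asprv1, an aspartic protease, had 73 and 15 UMIs, all in the cells with 3 neutrophil genes. Ly6a, which encodes the surface protein Sca-1 and responds to interferon, was spread over more cells, 73 with anti-PD-1 and 28 with isotype, at 182 and 72.1 CPM, a log2 ratio of 1.33 (1.03 to 1.64). Olfm1, a secreted olfactomedin, had 72.3 and 25.2 CPM, in 63 and 32 cells, one of 1.52 (1.02 to 2.05), and 1.09 in the narrowed gate.

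The 10 lowest included Il12b, Cstdc4, Hspb1, F13a1, Chil3, Rgcc, Atad2b, Gadd45g and Areg. Il12b, a subunit of interleukin 12, had 0 UMIs with anti-PD-1 and 63 with isotype, of which 58 came from 1 cell. Hspb1, a small heat-shock protein, had 24 and 110 UMIs, of which 69 came from 1 isotype cell. Cstdc4, a stefin family gene, had 10 and 73 UMIs, and 6 and 73 of them lay in the cells with 3 neutrophil genes. Rgcc, a cell cycle regulator that complement induces, had 115 and 193 CPM, in 81 and 83 cells, one of -0.75 (-0.9975 to -0.50).

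In the narrowed gate 304 of 5267 genes (5.77%) were at least 1.5-fold higher with anti-PD-1 and 141 (2.68%) lower. The 10 highest were then Cxcl9, Acod1, H2-DMb2, Ly6a, Gbp4, Fos, Cxcl10, Brd1, Egln1 and Slamf7, and Serpinb9, Serpinb6b and Asprv1 were no longer among them. Acod1, which makes the antimicrobial metabolite itaconate, had 76.0 CPM with anti-PD-1 and 22.1 CPM with isotype, in 30 and 15 cells, a log2 ratio of 1.79 (1.20 to 2.41). Ly6a had 141 and 54.4 CPM, one of 1.37 (0.99 to 1.77), and Brd1, a chromatin reader, had 53.5 and 19.9 CPM, in 72 and 24 cells, one of 1.43 (0.79 to 2.11). The 10 lowest were Hspb1, F13a1, Chil3, Areg, Ccdc47, Gadd45g, Hist1h2ap, Rgcc, Cxcl1 and Atad2b. Areg, a growth factor of tissue repair, had 15 and 37 UMIs in 5 and 8 cells, of which 19 came from 1 isotype cell. Its log2 ratio was -1.58 (-2.55 to -0.68). In all gated cells that of Areg lay between -2.87 and -0.23 over 15 alternatives.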

How the data were processed

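Live CD45-positive cells were enriched with beads and sorted from collagenase-digested tumours, and 1 library per group was made from 3′ transcript ends with 10x Genomics reagents, per the labels' protocols. The authors deposited sparse matrices of UMI counts over 32285 features, not normalized. Per the file headers, Cell Ranger 5.0.1 made the counts. The submitters' processing notes instead list version 2.1.1, with mm10 as the build. Strand setting and any doublet removal before deposit: not given in the sources used here.

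Barcodes with at least 200 genes and at most 10% mitochondrial UMIs were kept. No doublet caller was run. Leaving out cells with genes of another lineage served as alternatives instead. CPM are UMIs of a gene over all UMIs of a class in a library. Log2 ratios carry exact conditional binomial intervals, and where a library held 0 UMIs of a gene, 3 counts stood in for them. List medians use genes with 10 or more UMIs in all, as do list counts. Counts over all genes use 50 or more, or 10 or more where stated. The interval method was tested on simulated data. Thinned values use seed 1, and 1 gated cell per library was too shallow for 1000 UMIs.

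Every listed gene could be named. In addition, the 10 genes highest and lowest between the antibodies, and the 20 highest and 10 lowest against classical monocytes, were taken with at least 50 UMIs and 20 CPM, without mitochondrial, ribosomal, haemoglobin, sex-linked, immunoglobulin and receptor segment genes and unnamed gene models. A few genes that these rules admit are counted in the totals but not reported here. The cell rule, the lists and the named-gene rule were chosen with earlier results of these data known, so none is independent of them. The work used scipy 1.17.1, numpy 2.4.6 and pandas 2.3.3 in Python 3.11.15, figures from matplotlib 3.10.9, and TMM factors alone from edgeR 4.0.16 in R 4.3.3.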

Additional observations from a re-analysis of the deposited data

Results flagged for a closer look

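Several genes had a ratio of anti-PD-1 over isotype of opposite sign in the gated non-classical monocytes and in classical monocytes. With 1 library per group the difference was not tested in any of them. F13a1 had a log2 ratio of -1.999 in the gated cells and 0.07, close to none, in classical monocytes, from 16 and 52 UMIs in the gated cells. Ptgs2 had -0.37 in the gated cells and 0.56 in classical monocytes. Its value in the gated cells lay between -0.91 and 0.36 over 15 alternatives and was above 0 in 2 of them, without possible doublets and after thinning. Ccl2 had -0.53 in the gated cells and 0.20 in classical monocytes, and its value in the narrowed gate was -0.17. It lay between -0.99 and 1.19 over 15 alternatives, with 1.19 when 3 markers were required and 0.14 with Ly6c2 at 0. Plac8, which encodes a cysteine-rich protein of myeloid cells, had -0.14 in the gated cells and 0.24 in classical monocytes, and its value in the narrowed gate was 0.01. The classical values above are of the class before narrowing. In narrowed classical monocytes they were 0.02 for F13a1, 0.59 for Ptgs2, 0.24 for Ccl2 and 0.14 for Plac8.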

How the results depend on the processing

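Across 13 results on shares, counts of genes and list medians, 184 of 204 alternative values stayed within the interval of the value reported, or within 1.5 times it for counts. For a list median that interval is the median of its members' own bounds, which is not the counting error of the median. Of the 204 values 25 had the other sign, in 6 of the 13 results. No replicate could be left out, since each group is 1 library. For the same reason no paired analysis was possible. The share difference lay between 0.1002 and 0.626 points under 12 alternatives. Genes at least 1.5-fold higher and lower numbered 99 and 50 with cells thinned to 1000 UMIs, 836 and 350 with a minimum of 20 UMIs, and 1835 and 1083 with none. The interferon-gamma median lay between 0.74 and 1.11 under 16 alternatives. The MHC class II median, whose interval is narrow, was 1.34 with 3 markers, 0.38 without possible doublets, 0.53 with Ly6c2 at 0 and 0.40 in the narrowed gate. It was 0.34 without cells with 2 dendritic genes, 0.51 as a mean over cells, 0.50 after thinning, and 0.52 with TMM and with median-of-ratios scaling. The chemokine median was 0.51 without possible doublets and 0.41 in the narrowed gate. After thinning the median of other non-classical genes was 0.35 and that of inflammatory genes 0.23. With 3 markers the MHC class I median was -0.0064. The narrowed gate and the limit on dendritic genes were chosen after seeing the data.

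Of 1223 alternative values of single genes and smaller lists 39 had the other sign. Of these, 10 belonged to values that were at least 1.5-fold apart. With 3 markers these were Serpinb9 (-0.42), Serpinb6b (-3.42), Cxcl9 (-0.19), Asprv1 (-0.039) and Ccl7 (-0.42). Hspb1 was 1.04 with Ly6c2 at 0, Cstdc4 was 0.14 in the narrowed gate, and H2-DMb2 was -0.25 without cells with 2 dendritic genes. After thinning Ciita was -0.073 and Hes1 was 0.86. The cause was not tested. Depth limits all genes under 50 UMIs, and 1 library per group limits every comparison of the antibodies.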
